A study of Mus musculus with 6 samples.

Results

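The 9 genes described here encode transcription factors of the neural crest and of the autonomic neurons that arise from it: Tfap2a, Tfap2b, Tfap2c, Foxd3, Ets1, Snai1, Snai2, Twist1 and Phox2a. They were taken by gene symbol from 46517 gene IDs, and each symbol matched 1 ID. RNA was sequenced from E14TG2a, a mouse embryonic stem cell line of wild-type genotype, at 3 stages with 2 libraries each. The mESC stage is untreated stem cells kept without feeder cells on gelatin in medium with serum and the cytokine LIF. The NPC stage (neuronal progenitors) and the NC stage come from the same line under neuronal differentiation by a published protocol. The cell type label of all 6 libraries names embryonic stem cells, and the stages come from the titles, which do not spell out NC. It was taken as the remaining stage of the design text, glutamatergic pyramidal neurons. All 6 libraries derive from 1 cell line in culture, and the labels call the 2 libraries of a stage biological replicates without saying what was repeated. Values are deposited TPM, a transcript abundance per length that sums to the same total in each library, and all levels below are TPM.

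The neural crest is a transient population that forms at the border of the neural plate, loses its epithelial contacts and migrates through the embryo. It gives rise to peripheral neurons and glia, pigment cells and part of the skeleton of the face. AP-2 factors and FOXD3 specify the crest, the zinc finger repressors SNAI1 and SNAI2 and the factor TWIST1 act in the loss of epithelial contacts, and the homeodomain factor PHOX2A drives the noradrenergic programme of autonomic neurons. Several of these genes also have roles outside the crest: Foxd3 and Tfap2c are used by pluripotent and germ cells, Ets1 by endothelial and blood cells and Twist1 by mesenchyme.

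The libraries held 1.57 to 2.27 Gb of aligned bases. Pou5f1, which encodes the pluripotency factor OCT4, stood at 1475 and 1891 TPM in mESC, at 0.765 and 1.08 in NPC, and was listed at 0 in both NC libraries. In bulk RNA, fewer cells of a type and less RNA per cell cannot be told apart. The test for all comparisons was limma on log2(TPM + 1) over 20232 genes, with p adjusted by Benjamini and Hochberg and a threshold of 0.05, and log2 fold changes are on that scale, which understates the change of low genes. The 3 comparisons share libraries and are not independent of each other.

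**Figure D1:**
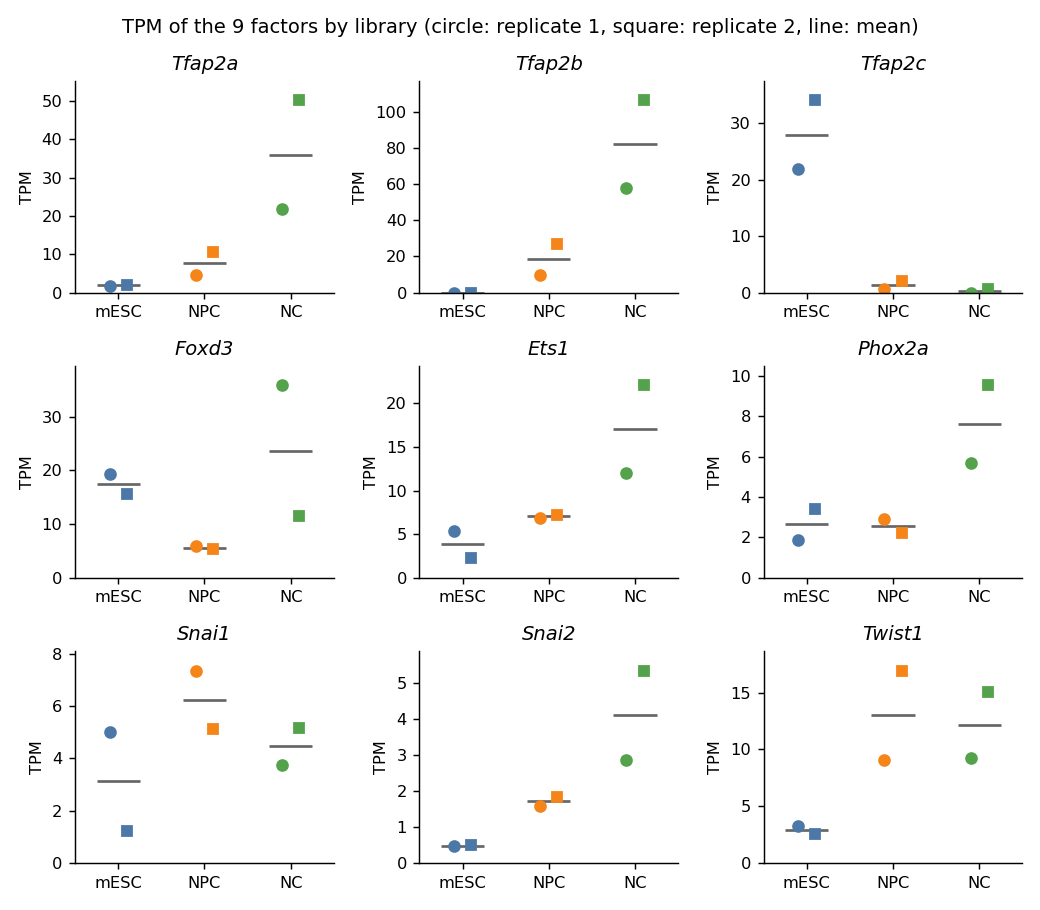
TPM (vertical axes, linear, each from 0) of the 9 factors in the mESC, NPC and NC libraries, with circles for replicate 1, squares for replicate 2 and lines for the mean of a stage. Tfap2a and Tfap2b are highest in both NC libraries, Tfap2c is highest in both mESC libraries, and Foxd3 is lowest in both NPC libraries.

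The 3 AP-2 genes exchanged places over the differentiation. Tfap2c was by far the most abundant of them in stem cells, and Tfap2b with Tfap2a made up nearly all of the AP-2 transcript in NPC and NC. Tfap2c (ENSMUSG00000028640.10, chromosome 2, 172549593 to 172558622, plus strand) encodes AP-2 gamma, which is also known from trophoblast and germ cells. It stood at 21.8 and 34.1 TPM in mESC cells, 0.561 and 2.11 at the NPC stage, and 0 and 0.660 at the NC stage. Both mESC libraries lay above every other library. It fell in NPC against mESC (log2 fold change -3.69 ± 0.447 SE, adjusted p = 0.00123) and in NC against mESC (-4.46 ± 0.447 SE, adjusted p = 0.000313), and both calls held under all 13 alternative settings. NC and NPC overlapped, and that difference did not pass (log2 fold change -0.77, adjusted p = 0.249).

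Tfap2b (ENSMUSG00000025927.12, chromosome 1, 19208914 to 19238576, plus strand) encodes AP-2 beta, a factor of the crest, of sympathetic neurons and of the dorsal neural tube. It was listed at 0 and 0.0371 TPM in mESC and stood at 9.93 and 26.8 in NPC and at 57.8 and 106 in NC. No stage overlapped another. It rose in NPC against mESC (log2 fold change 4.10 ± 0.483 SE, adjusted p = 0.00110) and in NC against mESC (6.29 ± 0.483 SE, adjusted p = 0.000111), with both calls held under all 13 alternatives, while the first of these changes was 7.13 with a pseudocount of 0.1. It also rose in NC against NPC (82.0 TPM ± 34.3 and 18.3 TPM ± 11.9, SD, n = 2 each, log2 fold change 2.19, adjusted p = 0.0211). This last call was lost under 7 of 13 settings, among them leaving out mESC replicate 1 (adjusted p = 0.0750), mESC replicate 2 (0.0753), NPC replicate 1 (0.118), NC replicate 1 (0.0510) or NC replicate 2 (0.125).

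Tfap2a (ENSMUSG00000021359.14, chromosome 13, 40715675 to 40733823, minus strand) encodes AP-2 alpha, which acts from the neural plate border onwards. It stood at 1.76 and 2.05 TPM in mESC cells, 4.63 and 10.7 at the NPC stage, and 21.8 and 50.2 at the NC stage, again with no overlap between stages. It rose in NC against mESC (36.0 TPM ± 20.1 and 1.91 TPM ± 0.204, SD, n = 2 each, log2 fold change 3.56 ± 0.483 SE, adjusted p = 0.00108), a call that held under all 13 alternatives. The steps between were smaller and less firm. Tfap2a rose in NPC against mESC (log2 fold change 1.49, adjusted p = 0.0490), and this was lost under 7 settings, including after median-of-ratios scaling (adjusted p = 0.0617) and without mESC replicate 1 (0.214), mESC replicate 2 (0.193), NPC replicate 1 (0.0511) or NPC replicate 2 (0.272, log2 fold change 0.96). In NC its level rose against NPC (log2 fold change 2.07, adjusted p = 0.0248), and this too was lost under 7 settings, including without mESC replicate 1 (adjusted p = 0.0828), mESC replicate 2 (0.0832), NPC replicate 1 (0.162), NPC replicate 2 (0.0569) or NC replicate 2 (0.119). Gm26688, an antisense gene that overlaps Tfap2a, stood at 0 in both mESC libraries, 0.894 and 1.82 TPM at the NPC stage, and 2.21 and 7.32 at the NC stage. No strand setting is named in the labels, so reads of the pair cannot be told apart.

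Added together, Tfap2a, Tfap2b and Tfap2c reached 23.6 and 36.2 TPM in mESC cells, 15.1 and 39.6 at the NPC stage, and 79.6 and 157 at the NC stage. Tfap2c supplied 92.5% and 94.2% of that sum in the mESC libraries. Tfap2b supplied 65.7% and 67.6% in NPC and 72.6% and 67.6% in NC, while Tfap2a supplied 30.6% and 27.1% at the NPC stage and 27.4% and 32.0% at the NC stage. The sum overlapped between mESC and NPC although its make-up did not. The ratio of deposited coverage (mean read depth per base) to FPKM, which many genes of a library share, stood at 94.2% to 95.3% of that shared value for Tfap2a, 62.5% to 75.2% for Tfap2b and 55.7% to 61.0% for Tfap2c, where they were above 0. What sets this ratio is not stated in the file headers, so sums and shares over these genes carry that uncertainty. The remaining family members, Tfap2d and Tfap2e, stayed at or below 1.55 TPM in all 6 libraries and did not pass the filter.

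**Figure D2:**
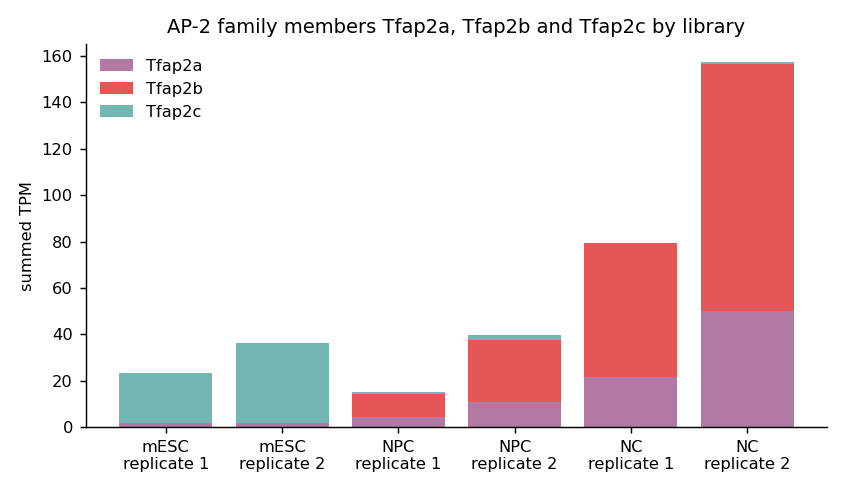
Summed TPM (vertical axis) of Tfap2a, Tfap2b and Tfap2c, stacked, in each of the 6 libraries. The mESC bars are nearly all Tfap2c, the NPC and NC bars nearly all Tfap2b and Tfap2a, and the bar of NC replicate 2 reaches 157 TPM.

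The promoters of Tfap2a and Tfap2b are shown because these genes were higher together in NC, beside those of Foxd3, which took another course, and of Snai1, which holds the recognition motif of the Snail factors. The RefSeq promoter table (GRCm38.p6, the assembly of mm10) had entries for 6 of the 9 genes, with 7 windows in all, and Tfap2c, Ets1 and Snai2 had none. Each line gives the 250 bases before the RefSeq start, 5′ to 3′ on the strand of the gene, and capitals mark matches to the AP-2 motif GCCNNNGGC or to the E-box CANNTG, searched on both strands.
Tfap2a, chr13:40733796-40734045, minus strand: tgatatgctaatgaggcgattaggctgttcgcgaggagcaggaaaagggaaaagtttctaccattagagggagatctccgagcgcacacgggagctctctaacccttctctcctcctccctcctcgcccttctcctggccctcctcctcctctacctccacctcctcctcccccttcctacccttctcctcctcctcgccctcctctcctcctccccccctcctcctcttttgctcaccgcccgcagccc
Tfap2b, chr1:19211804-19212053, plus strand: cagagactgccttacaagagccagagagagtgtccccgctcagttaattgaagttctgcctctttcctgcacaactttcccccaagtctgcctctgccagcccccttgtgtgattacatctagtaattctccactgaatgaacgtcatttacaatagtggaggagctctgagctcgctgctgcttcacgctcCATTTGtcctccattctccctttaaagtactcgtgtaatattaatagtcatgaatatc
Foxd3, chr4:99656049-99656298, plus strand: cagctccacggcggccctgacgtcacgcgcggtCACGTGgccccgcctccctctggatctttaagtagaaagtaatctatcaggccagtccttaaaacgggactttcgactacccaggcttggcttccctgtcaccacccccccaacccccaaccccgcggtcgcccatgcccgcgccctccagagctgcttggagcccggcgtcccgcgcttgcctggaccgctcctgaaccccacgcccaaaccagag
Snai1, chr2:167537945-167538194, plus strand: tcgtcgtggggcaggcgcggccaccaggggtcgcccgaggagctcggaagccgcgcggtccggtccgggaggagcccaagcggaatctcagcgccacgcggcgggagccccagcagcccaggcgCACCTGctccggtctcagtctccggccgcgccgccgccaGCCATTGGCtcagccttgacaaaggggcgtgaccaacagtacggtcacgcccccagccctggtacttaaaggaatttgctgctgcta

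The AP-2 motif was found in the Snai1 window alone, 1 of the 7, at position -87 from the start, against 13.7% of 32851 promoter windows of this length. The E-box CANNTG was found in 3 of the 7 windows, those of Tfap2b (-58), Foxd3 (-217) and Snai1 (-126), against 66.2% of all windows. CACCTG or its reverse complement CAGGTG, the form of E-box bound by SNAI1 and SNAI2 and itself a CANNTG match, was in the Snai1 window alone, against 17.2% of all windows. The Tfap2a window held neither motif. The windows held between 5 CpG dinucleotides (Tfap2b) and 27 (Snai1), with a median of 6 over all promoters. The RefSeq start of Tfap2b lies 3140 bases inside the gene as the deposited tables place it, and a further RefSeq start of Tfap2a lies 1097 bases upstream of the tables' start, so the windows need not be the starts used in these cells.

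Foxd3 (ENSMUSG00000067261.4, chromosome 4, 99656299 to 99658622, plus strand) encodes a forkhead repressor of pluripotent cells and of the early crest, and it was lowest at the progenitor stage. It stood at 19.4 and 15.7 TPM in mESC cells, 5.96 and 5.27 at the NPC stage, and 35.8 and 11.5 at the NC stage. The NPC libraries lay below all others, while NC and mESC overlapped because 1 NC library was above both mESC libraries and the other below both. Foxd3 fell in NPC against mESC (5.61 TPM ± 0.489 and 17.5 TPM ± 2.63, SD, n = 2 each, log2 fold change -1.48 ± 0.475 SE, adjusted p = 0.0468). It rose in NC against NPC (log2 fold change 1.70 ± 0.475 SE, adjusted p = 0.0429), and in NC against mESC the change of 0.22 did not pass (± 0.475 SE, adjusted p = 0.709).

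Both calls on Foxd3 were fragile. The fall in NPC against mESC was lost without mESC replicate 1 (adjusted p = 0.230), mESC replicate 2 (0.175), NPC replicate 1 (0.150) or NPC replicate 2 (0.194). The rise in NC against NPC was lost without mESC replicate 1 (adjusted p = 0.115), mESC replicate 2 (0.115), NPC replicate 1 (0.179), NPC replicate 2 (0.189) or NC replicate 1 (0.0675, log2 fold change 0.93), and after median-of-ratios scaling (0.0526). Without NC replicate 2, Foxd3 was called higher in NC than in mESC (log2 fold change 1.00, adjusted p = 0.0252).

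Ets1 (ENSMUSG00000032035.14, chromosome 9, 32636221 to 32757820, plus strand) encodes an ETS factor that takes part in the delamination of the cranial crest and is also used by endothelial and blood cells. It stood at 5.34 and 2.30 TPM in mESC cells, 6.86 and 7.19 at the NPC stage, and 12.0 and 22.0 at the NC stage, so that each stage lay above the one before it without overlap. In NC its level rose against mESC (17.0 TPM ± 7.10 and 3.82 TPM ± 2.15, SD, n = 2 each, log2 fold change 1.92 ± 0.405 SE, adjusted p = 0.00666), which was lost without mESC replicate 2 (adjusted p = 0.0562). The steps to NPC (0.81, adjusted p = 0.160) and between NC and NPC (1.11, adjusted p = 0.0912) did not pass. The deposited coverage of Ets1, the mean read depth per base, was only 0.324 to 2.27 reads, and its ratio to FPKM was 11.5% to 12.5% of the ratio that genes such as Foxd3 and Snai1 share in the same library. The level of Ets1 against the other genes is therefore uncertain too. Gm27240, an antisense gene that overlaps Ets1, stood at 2.02 TPM in NC replicate 2 and was listed at 0 in every other library. Without a known strand setting, reads of this pair cannot be told apart.

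Markers of endothelium and blood, cells that also use Ets1, were set beside it. Of 15 in the list, 9 passed the filter. In NC against mESC 2 of them fell, Pecam1 (log2 fold change -4.04) and Tek (-1.21), and 0 rose. Over all tested genes 22.1% were called lower and 37.8% higher in that comparison. The list median was -0.35 against 0.31 over all tested genes. The summed TPM of the list was 28.4 and 32.8 in NC and 80.3 and 42.4 in mESC. The part of such cells in the change of Ets1 was not tested.

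Snai1 and Snai2 encode zinc finger repressors that bind E-boxes and lower the expression of E-cadherin, and both were low. Snai2 (ENSMUSG00000022676.6, chromosome 16, 14705852 to 14709395, plus strand) stood at 0.462 and 0.501 TPM in mESC cells, 1.59 and 1.82 at the NPC stage, and 2.87 and 5.34 at the NC stage, with no overlap between stages. It rose in NC against mESC (4.10 TPM ± 1.75 and 0.481 TPM ± 0.0276, SD, n = 2 each, log2 fold change 1.74 ± 0.307 SE, adjusted p = 0.00321), a call that held under all 13 alternatives with a change of 1.07 on FPKM and 2.79 with a pseudocount of 0.1. Its step to NPC did not pass (0.87, adjusted p = 0.0636) but passed without NC replicate 1 (0.0214) or NC replicate 2 (0.0204). Its step between NC and NPC did not pass either (0.87, adjusted p = 0.0821) but passed without NC replicate 1 (0.0328).

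Snai1 (ENSMUSG00000042821.7, chromosome 2, 167538195 to 167542814, plus strand) stood at 5.02 and 1.23 TPM in mESC cells, 7.37 and 5.13 at the NPC stage, and 3.75 and 5.17 at the NC stage. The 2 mESC libraries differed in TPM by more than the means of NC and mESC did, and no comparison passed (adjusted p = 0.161 in NPC against mESC, 0.584 in NC against NPC and 0.348 in NC against mESC). Without mESC replicate 1, Snai1 was called higher in NPC (log2 fold change 1.68, adjusted p = 0.0366) and in NC (1.28, adjusted p = 0.0469) than in mESC.

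Twist1 (ENSMUSG00000035799.5, chromosome 12, 33957671 to 33959817, plus strand) encodes a basic helix-loop-helix factor of cranial crest mesenchyme and of mesoderm. It stood at 3.22 and 2.58 TPM in mESC cells, 9.07 and 17.0 at the NPC stage, and 9.23 and 15.0 at the NC stage. Both differentiated stages lay above mESC and overlapped each other. Twist1 rose in NPC against mESC (13.0 TPM ± 5.58 and 2.90 TPM ± 0.454, SD, n = 2 each, log2 fold change 1.79 ± 0.365 SE, adjusted p = 0.00916) and in NC against mESC (1.72 ± 0.365 SE, adjusted p = 0.00678), while NC against NPC gave -0.07 (± 0.365 SE, adjusted p = 0.912). The first call was lost without mESC replicate 1 (adjusted p = 0.0606), mESC replicate 2 (0.0874) or NPC replicate 2 (0.0737), and the second without mESC replicate 2 (0.0693).

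Fibroblast and mesenchyme markers were set beside these genes. Of 18 that passed the filter, 11 rose and 2 fell in NC against NPC, led by Postn (101 and 44.2 TPM in NC, against 1.26 and 0.978 in NPC), Col1a2 (log2 fold change 4.45), Acta2 (4.40) and Dcn, which encode proteins of the extracellular matrix and the contractile cytoskeleton. Dcn stood at 20.1 and 22.4 TPM in NC, against 0 and 0.504 in NPC. Over all tested genes 15.2% were called higher and 10.1% lower in NC against NPC. The summed TPM of the list was 171 and 101 in mESC, 132 and 162 at the NPC stage, and 1178 and 1265 at the NC stage. In the same comparison of NC with NPC, Tfap2a, Tfap2b, Foxd3 and Phox2a rose. The changes of Twist1 (log2 fold change -0.07), Snai1 (-0.40), Snai2 (0.87), Ets1 (1.11) and Tfap2c (-0.77) did not pass. The part of fibroblast-like cells in the levels of any of these genes was not tested.

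Of 19 other genes of the epithelial to mesenchymal transition, 8 rose and 5 fell in NPC against mESC. Over all tested genes 26.0% were called higher and 14.0% lower in that comparison. Cdh1, which encodes E-cadherin, fell to 44.3 and 25.8 TPM in NPC, against 358 and 198 in mESC (log2 fold change -2.94 ± 0.577 SE, adjusted p = 0.00799). Cdh2, which encodes N-cadherin, rose to 114 and 119 TPM in NPC, against 5.72 and 9.52 in mESC (adjusted p = 8.22e-05), and Zeb2, a zinc finger repressor of E-cadherin, to 57.1 and 60.6, against 2.56 and 8.22 (3.39 ± 0.410 SE, adjusted p = 0.00123). In NC against NPC 3 of the 19 rose and 7 fell, where 15.2% of all tested genes were called higher and 10.1% lower. The falls were led by the epithelial genes Cldn6 (log2 fold change -2.92), Epcam (-2.58), Esrp1 (-2.54) and Cldn7 (-2.06). The rest of the falls were those of Grhl2 (-1.965), Foxc2 (-1.85) and Tcf3 (-0.51). At both differentiated stages Zeb2 had a higher TPM than Snai1, Snai2 or Twist1 in every library.

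Phox2a (ENSMUSG00000007946.10, chromosome 7, 101818313 to 101822726, plus strand) stood at 1.89 and 3.41 TPM in mESC cells, 2.92 and 2.24 at the NPC stage, and 5.71 and 9.54 at the NC stage. Both NC libraries lay above the other 4, and mESC and NPC overlapped. In NC its level rose against mESC (7.62 TPM ± 2.71 and 2.65 TPM ± 1.08, SD, n = 2 each, log2 fold change 1.24 ± 0.347 SE, adjusted p = 0.0204), which was lost without mESC replicate 1 (adjusted p = 0.121) or NC replicate 2 (0.0971), and was 0.81 on FPKM. Its rise in NC against NPC (log2 fold change 1.24 ± 0.347 SE, adjusted p = 0.0433) was lost under 12 of 13 alternatives, which include leaving out each library in turn (adjusted p from 0.0526 to 0.211) and the replicate block (0.0505). NPC against mESC gave 0.00 (± 0.347 SE, adjusted p = 1.00). Inppl1, a gene of the opposite strand that overlaps Phox2a, stood at 69.9 to 160 TPM in the 6 libraries, above Phox2a in each. Without a known strand setting, the low level of Phox2a is uncertain.

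The list of sympathetic, parasympathetic and visceral motor neuron genes had 28 members, of which 23 passed the filter. In NPC against mESC 15 of them rose and 1 fell, in NC against NPC 6 rose and 3 fell, and in NC against mESC 18 rose and 2 fell. The list medians were 2.03, 0.18 and 2.16 against 0.18, 0.11 and 0.31 over all tested genes. Of all tested genes 26.0%, 15.2% and 37.8% were called higher in these comparisons, and 14.0%, 10.1% and 22.1% lower. Chrna3, a nicotinic receptor subunit of autonomic ganglia, was listed at 0 in mESC and stood at 71.6 and 76.0 TPM in NPC and 58.4 and 67.5 in NC.

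Th, which encodes tyrosine hydroxylase, the first enzyme of catecholamine synthesis, was listed at 0 in mESC and stood at 4.56 and 10.6 TPM in NPC and 22.1 and 44.0 in NC. It rose in NC against NPC (log2 fold change 2.01 ± 0.453 SE, adjusted p = 0.0225) and so did Prph, Rgs4 and Slc5a7. The 3 list members that fell there were Ddc (log2 fold change -1.49, adjusted p = 0.0198), Ret (-1.32, adjusted p = 0.0118) and Gfra3 (-1.24, adjusted p = 0.0221). Ddc dropped to 3.84 and 6.06 TPM at the NC stage from 18.5 and 12.8 at the NPC stage. It was also lower in NC than in mESC (-1.23, adjusted p = 0.0156). Prph, an intermediate filament gene of peripheral neurons, stood at 13.1 and 12.8 TPM in mESC, 1.07 and 1.29 at the NPC stage, and 45.5 and 11.1 at the NC stage. NC thus overlapped mESC, and that difference did not pass (log2 fold change 0.77, adjusted p = 0.283). Rgs4 stood at 0 in both mESC libraries, 2.84 and 2.64 TPM at the NPC stage, and 51.8 and 14.5 at the NC stage, so that for Prph and Rgs4 alike NC replicate 1 was far above NC replicate 2. Slc5a7, the choline transporter gene, stood at 1.58 and 3.85 TPM in NC, against 0 in both NPC libraries, and at 0.105 and 0.0742 in mESC. The 5 members that did not pass the filter were Hand1, Dbh, Slc6a2, Chat and Tbx20, named because they failed it. Dbh, which encodes the enzyme that makes noradrenaline, was at most 0.403 TPM in any library, and Slc6a2, the noradrenaline transporter gene, at most 1.05. Slc18a2, which encodes the vesicular monoamine transporter and was picked after its values were seen, stood at 1.18 and 0.866 TPM in mESC, 10.3 and 9.25 at the NPC stage, and 9.21 and 6.96 at the NC stage, and it rose in NC against mESC (log2 fold change 2.16, adjusted p = 0.000637).

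**Figure D3:**
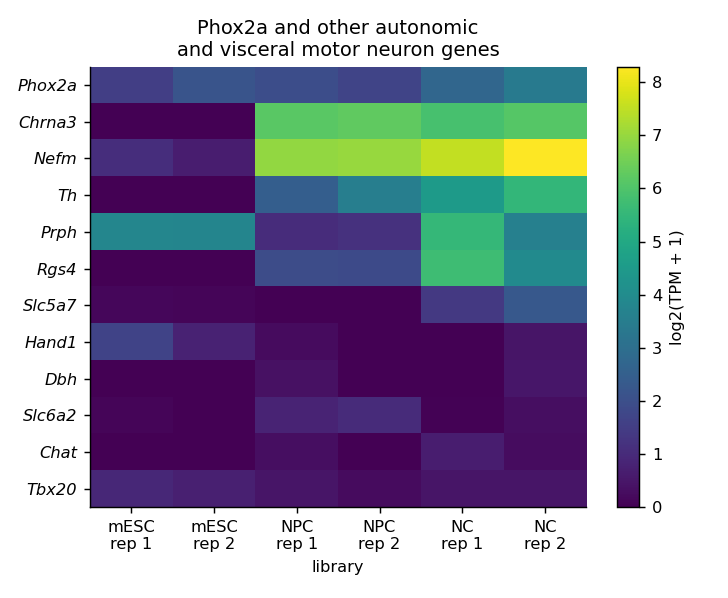
Log2(TPM + 1) (colour) of Phox2a and of some other autonomic and visceral motor neuron genes named here (rows) in the 6 libraries (columns). Dbh stays dark in both NC libraries, while Chrna3 and Nefm are bright in all NPC and NC libraries.

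Other genes of crest development reached their highest levels at different stages. Of 10 neural plate border factors that passed the filter, 7 rose and 2 fell in NPC against mESC. Their median was 3.58 against 0.18 over all tested genes, of which 26.0% were called higher and 14.0% lower. Msx3, Msx1 (log2 fold change 5.30) and Zic1 (4.88) led the rise, with Msx3 at 41.8 and 138 TPM in NPC, against 0 and 0.416 in mESC. Pax3, a paired-box factor of the border and the dorsal neural tube, stood at 20.9 and 50.3 TPM in NPC, against 0.197 and 0.207 in mESC (4.80 ± 0.399 SE, adjusted p = 0.000284). In NC against NPC 5 of the 10 fell, led by Pax7 (-3.31), Msx2 (-2.94), Msx1 (-2.27) and Msx3 (20.6 and 13.4 TPM in NC). Pax3 (28.5 and 34.5 TPM in NC, log2 fold change -0.05) and Zic1 (25.5 and 60.0 TPM, 0.38) overlapped NPC and did not pass. Of all tested genes 10.1% were called lower in that comparison. Tfap2a and Tfap2b, by contrast, had higher TPM in both NC than in both NPC libraries.

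Of the 19 other specifiers and genes of migrating crest, 11 rose and 3 fell in NPC against mESC. In NC against mESC 15 rose and 4 fell (median 2.73, against 0.31 over all tested genes). In NC against NPC 4 rose and 5 fell, with a median of 0.04 against 0.11 over all tested genes. The largest changes there were those of Id3 (log2 fold change -3.10), Cdh11 (2.47), Sox10 and Id1 (-2.06). In these comparisons 26.0%, 37.8% and 15.2% of all tested genes were called higher, and 14.0%, 22.1% and 10.1% lower. Nr2f1 (log2 fold change 7.36), Ednrb (6.19), Nr2f2 and Sox9 (5.07) led the rise to NPC, with Nr2f2 at 45.3 and 40.4 TPM in NPC, against 0.349 and 0.0550 in mESC. Sox10, which marks migrating crest and its glia as well as central oligodendrocytes, stood at 0 and 0.285 TPM in mESC, 0.789 and 0.347 at the NPC stage, and 12.3 and 4.12 at the NC stage, and it rose in NC against NPC (log2 fold change 2.41 ± 0.470 SE, adjusted p = 0.0144). Schwann cell and melanocyte markers rose for 1 and fell for 1 of 8 tested in NC against NPC. The pigment enzyme genes Tyr and Tyrp1 were listed at 0 in all 6 libraries.

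Counted over the 9 factors, 3 rose and 2 fell in NPC against mESC, where 26.0% of all tested genes were called higher and 14.0% lower (40.0% in either direction). In NC against NPC 4 rose, where 15.2% of all tested genes were called higher and 10.1% lower (25.3% together). Neither at the adjusted threshold nor at an unadjusted p under 0.05 did a member fall in that comparison. In NC against mESC 6 rose and 1 fell, where 37.8% of all tested genes were called higher and 22.1% lower (59.9% together). All 9 passed the filter of 1 TPM in 2 libraries, Tfap2c through its 2 mESC libraries and 1 NPC library. The median log2 fold change over all tested genes was 0.18, 0.11 and 0.31 in these comparisons, and -0.02, 0.04 and 0.04 after median-of-ratios scaling. Genes called higher then made up 52.1%, 54.9% and 52.1% of those called, against 65.0%, 60.1% and 63.2% as deposited.

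**Figure D4:**
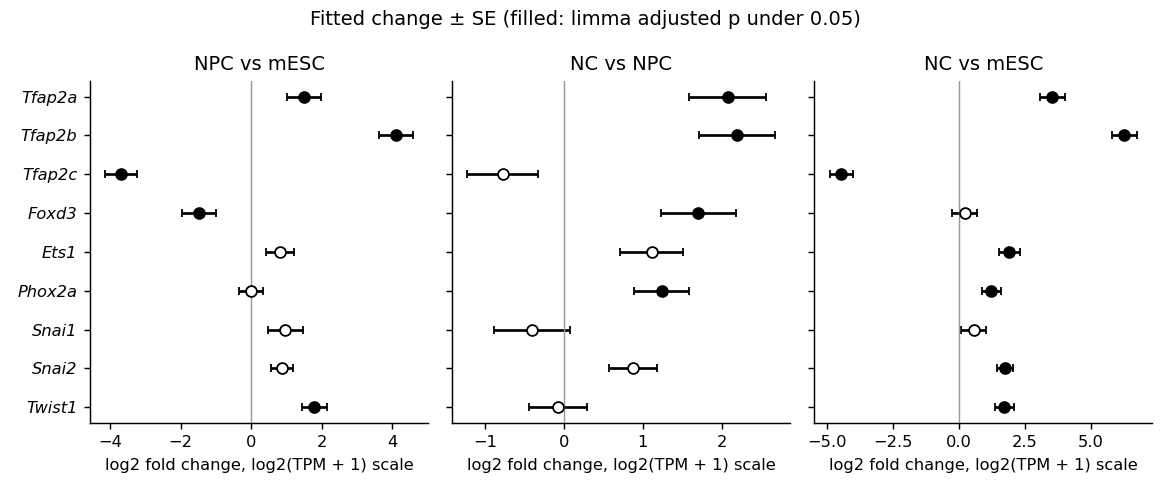
Log2 fold change on the log2(TPM + 1) scale (horizontal axes, ranges differ between panels) with SE for the 9 factors in 3 panels, NPC against mESC, then NC against NPC, then NC against mESC. Filled points passed an adjusted p of 0.05, and in the last panel Tfap2b lies farthest to the right and Tfap2c farthest to the left.

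Ordered by mean TPM, the stages had different leaders, within the uncertainty given above for the levels of Tfap2b, Tfap2c and Ets1 against other genes. In mESC the order was Tfap2c (28.0), Foxd3 (17.5), Ets1 (3.82), Snai1 (3.12), Twist1 (2.90), Phox2a (2.65), Tfap2a (1.91), Snai2 (0.481) and Tfap2b (0.0186), and the ranges of Ets1, Snai1, Twist1 and Phox2a overlapped there, as did those of Phox2a and Tfap2a. In NPC Tfap2b (18.3) and Twist1 (13.0) led, with overlapping ranges, and Tfap2c (1.33) was last. In NC Tfap2b (82.0) led before Tfap2a (36.0), Foxd3 (23.7) and Ets1 (17.0), of which only Tfap2b lay above all of the others in both libraries. The mean of Tfap2b lay above that of 3.9% of all tested genes in mESC, 55.3% in NPC and 85.8% in NC.

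The libraries of a stage differed in how much of these factors they held. In NC, 8 of the 9 were higher in replicate 2 than in replicate 1, while 52.1% of all tested genes were. Tfap2a differed by 1.17 on the log2 scale between these libraries, Tfap2b by 0.87 and Ets1 by 0.83. Foxd3 was the exception, with replicate 2 minus replicate 1 at -1.55, and 1.47% of tested genes had a lower value. Of the 19 specifiers and genes of migrating crest, 13 were also higher in NC replicate 1. Among them Sox10 stood at 12.3 and 4.12 TPM in NC replicates 1 and 2, Sox9 at 47.3 and 18.1, Sox8 at 20.5 and 4.74, and Ednrb at 114 and 17.4, of which Sox8 was picked after its values were seen. The other 6 of the 19 were higher in replicate 2. Ngfr (30.6 and 62.9 TPM in NC replicates 1 and 2) and Cdh6 (28.0 and 39.9) were among these, and were picked after their values were seen. In NPC, Tfap2b (1.35), Tfap2a (1.06), Tfap2c (0.99) and Twist1 (0.83) were higher in replicate 2 by at least as much as 96.8% of tested genes. The labels do not say whether the replicate numbers pair the libraries of different stages, so the orders were not compared between stages.

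**Figure D5:**
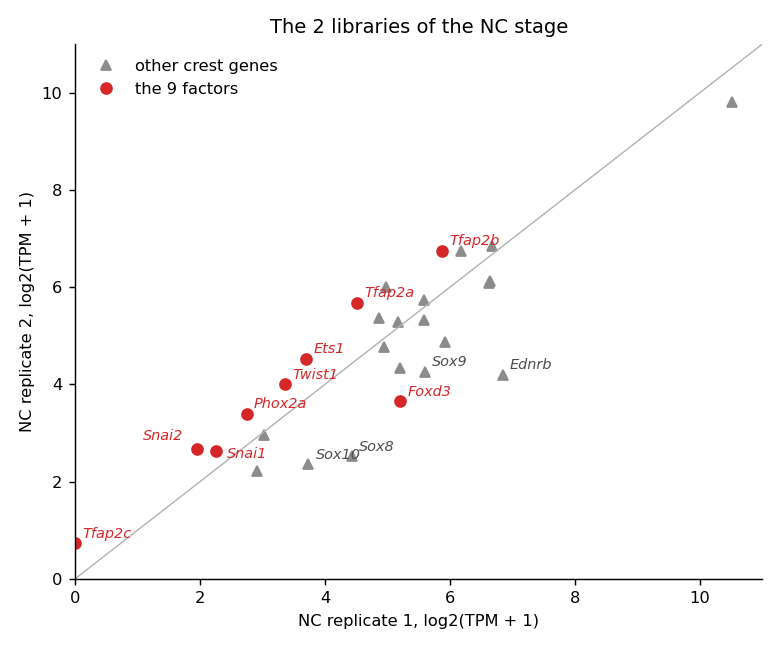
Log2(TPM + 1) in NC replicate 1 (horizontal) and NC replicate 2 (vertical) for the 9 factors (circles) and 19 other crest genes (triangles), with the line of equality. Foxd3 lies below the line with Sox8, Sox9, Sox10 and Ednrb, and the other 8 factors lie above it. Of the 19 other crest genes, 13 lie below the line and 6 above it.

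Among relatives of the 9 genes, the Snail-related Scrt1 and Scrt2, which are genes of postmitotic neurons, had the largest changes in NC against mESC. Scrt1 stood at 155 and 128 TPM in NC, against 0 and 0.129 in mESC, and Scrt2 at 191 and 171, against 0.159 and 0.251. Snai3, the third Snail gene, ran the other way, at 0.190 and 0.135 TPM in NC, against 5.88 and 5.85 in mESC (log2 fold change -2.56 ± 0.252 SE, adjusted p = 0.000288). Tcf15, a basic helix-loop-helix gene of the Twist group, fell in NC against mESC (-4.21). Foxd2, a gene related to Foxd3, fell in NC against NPC (-2.59 ± 0.294 SE, adjusted p = 0.0037).

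Likeness of pattern was measured as the root mean square difference over the 6 libraries between log2(TPM + 1) of 2 genes, each centred on its own mean. Nearest to Tfap2b were Nrxn3 (0.175), which encodes a presynaptic adhesion molecule, Chrna4 (0.272), a nicotinic receptor subunit gene, and Uncx (0.273), a homeobox gene. Nearest to Tfap2a were Klhl32 (0.138), Hs3st5 (0.237) and Gm25279 (0.247). Nearest to Tfap2c were Tcf15 (0.288), Slc9b1 (0.317) and Gm13235 (0.356), and to Foxd3 Tprn (0.209), Tmprss5 (0.260) and Stat3 (0.273), the last of which encodes the transcription factor downstream of LIF. Ets1 was closest to Gm25219 (0.123), Amigo3 (0.127) and Cyp4f17 (0.153), and Snai1 to Fuca2 (0.129), Tcn2 (0.163) and Ctsb (0.167), of which Ctsb encodes a lysosomal protease. Twist1 was closest to Tll1 (0.143), Gm38381 (0.157) and Snx11 (0.165), Phox2a to Gm22661 (0.083), Coq10b (0.120) and Gm26121 (0.132), and Snai2 to RP24-535K22.2 (0.050), Gm8281 (0.079) and Nanos2 (0.083). Within the set, Ets1 and Snai2 were the closest to each other (0.303). These 6 points come from 3 stages, so likeness here is a description of stage levels.

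Markers of trophoblast and surface ectoderm, cell types that also use AP-2 factors, fell for 2 and rose for 1 of 8 tested in NPC against mESC. They fell for 5 and rose for 1 in NC against mESC. Of all tested genes 14.0% were called lower and 26.0% higher in the first comparison, and 22.1% and 37.8% in the second. The summed TPM of these markers was 242 and 136 in mESC, 317 and 205 at the NPC stage, and 77.8 and 289 at the NC stage. Most of it was Krt8 and Krt18, and Krt5 was listed at 0 in all 6 libraries. Among them Grhl3, an epithelial transcription factor gene, was highest in mESC like Tfap2c, at 23.8 and 27.3 TPM, against 0.437 to 0.888 in the other 4 libraries. Eomes, a T-box factor gene of trophoblast and early mesoderm, was also highest there, at 4.67 and 2.30 TPM in mESC, 0.163 and 0.133 at the NPC stage, and 1.65 and 0.732 at the NC stage. Other members did not follow Tfap2c. Gata3, the 1 that rose, reached 11.4 and 8.49 TPM at the NPC stage from 0.907 and 0.292 in stem cells (log2 fold change 2.79, adjusted p = 0.000742). Cdx2 had 2.23 and 2.55 TPM at the NPC stage, above its 0.990 and 1.67 in stem cells, but this change did not pass (adjusted p = 0.135). The part of such cells in the levels of the AP-2 genes was not tested.

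A list of signals that induce the crest, which also holds the transcription factor genes Lmx1a and Lmx1b, was compared. Of its 10 members that passed the filter, 7 rose and 1 fell in NPC against mESC, where 26.0% and 14.0% of all tested genes did. In NC against NPC 1 rose and 5 fell, where 15.2% and 10.1% of all tested genes did. The member that rose there was Lmx1b (36.8 and 39.0 TPM in NC, against 2.35 and 1.98 in NPC), and Lmx1a was among the 5 that fell, with Wnt1, Wnt3a, Bmp7 and Fgf3. Wnt1, a signal of the dorsal neural tube, stood at 0 and 0.00518 TPM in mESC, 29.5 and 91.2 at the NPC stage, and 0.312 and 3.42 at the NC stage (NC against NPC, log2 fold change -4.46 ± 0.694 SE, adjusted p = 0.00767). Bmp4 fell to 6.30 and 6.03 TPM in NPC, against 112 and 73.7 in mESC (-3.68 ± 0.252 SE, adjusted p = 0.000142).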

How the data were processed

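RNA abundance was measured by poly(A) selection, rRNA depletion and Ion Proton sequencing in 6 libraries of E14TG2a. Per the submitters' processing notes, STAR 2.7.9a and StringTie 2.1.5 were among the tools and mm10 was the build. Per the file headers, the authors deposited coverage, FPKM and TPM per gene for each library. The deposited TPM values are FPKM rescaled to the same sum per library, the deposited FPKM values are per transcript length and aligned bases, and the deposited coverage is the mean read depth per base. The annotation release and strand setting used are not stated there. Depth was read from the ratio of coverage to FPKM that 38.3% to 39.7% of genes of at least 1 FPKM share, within a tolerance of 0.1%. The tables hold no read counts, so no counting interval can be given, and precision rests on 2 libraries a stage.

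Repeated lines of a gene ID (2 to 9 per table) were summed. A gene entered the test if 2 or more of the 6 libraries reached 1 TPM. The test was run with limma 3.58.1 in R 4.3.3 (lmFit, eBayes with trend) on log2(TPM + 1), two-sided, over all 6 libraries with 3 residual degrees of freedom. No permutation test over 2 against 2 libraries can pass 0.05. The p-values rest on the spread within stages, pooled over all 6 libraries. This spread is drawn by eBayes towards a trend over all tested genes, so it is not that of the compared libraries alone. The test was also run on simulated data for NPC against mESC with 20232 genes. It called 32 of 100 genes given a log2 change of 1 and 79 of 100 given one of 2, and 5.93% of its calls were false. Far fewer genes were changed there than the 8100 called in the real comparison, so these rates need not hold for it. Alternatives were another scaling, FPKM, another pseudocount, other filters, a fit on only the groups compared, a replicate block and leaving out each library.

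The 9 genes and the gene lists were chosen with earlier results of these data known. Of each list the text names at most 4 called members with the largest change per comparison, or fewer, together with Sox10, Sox9, Pax3, Zeb2, Cdh1, Cdh2 and Pou5f1, and some genes of the lists are not reported here. Other list members named (Snai3, Tfap2d, Tfap2e, Ddc, Ret, Tyr, Tyrp1, Krt5, Krt8 and Krt18 among them) were picked after their values were seen. Where a compared stage has a library at 0, the values of its libraries are given. The pluripotency list was used only for Pou5f1. The sensory neuron list had 20 members tested. In NPC against mESC 11 rose and 2 fell, where 26.0% and 14.0% of all tested genes did. In NC against NPC 9 rose and 1 fell, where 15.2% and 10.1% of all tested genes did.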

Additional observations from a re-analysis of the deposited data

How the results depend on the processing

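Over the 13 alternatives no called change of the 9 factors reversed its sign. The falls of Tfap2c and the rises of Tfap2b in NPC and in NC against mESC, and the rises of Tfap2a and Snai2 in NC against mESC, kept their calls under all 13. Members called in NPC against mESC numbered 5, and 3 without the filter. Leaving out 1 library gave 2 to 6, with 2 without mESC replicate 2 or NPC replicate 2 and 3 without mESC replicate 1 or NPC replicate 1. Members called in NC against NPC numbered 4, and 2 after median-of-ratios scaling, 2 on FPKM, 0 without the filter and 0 in the fit on only the groups compared. Leaving out 1 library gave 0 to 2, with 0 without mESC replicate 1, mESC replicate 2 or NPC replicate 1, and in the settings with 0 calls by limma 5 members had an unadjusted p under 0.05. In NC against mESC the count of 7 was 5 to 7 when a library was left out. Over all genes, leaving out 1 library gave 4032 to 8484 calls in NPC against mESC (8100 as deposited), 309 to 4156 in NC against NPC (5123) and 9499 to 11187 in NC against mESC (12118). The count in NC against NPC came to 309 when NPC replicate 1 was left out, 1276 for NPC replicate 2 and 3315 for NC replicate 2, and that in NPC against mESC fell to 4032 if NPC replicate 2 was dropped and to 4621 for NPC replicate 1. Without the filter, NC against NPC gave 3166. Leaving out a library leaves a stage with 1, which is then assumed to vary like the others. The cause of these shifts was not tested, apart from the fewer libraries. With the replicate number as a block, 5, 3 and 7 members were called in these comparisons. The labels do not say whether the numbers pair the libraries. The correlation of deviations from the stage means over all tested genes was 0.045 for mESC and NPC, -0.082 for mESC and NC and -0.070 for NPC and NC. Such a value cannot decide whether the libraries were paired. Coverage below 1 read per base limits the low values of Snai2, Tfap2c and Tfap2b.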
